A study of Oryza sativa with 8 samples.

Results

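Among the transcripts of rice root tips, 100 genes were followed whose level was higher with ethylene gas, whose level differed little between the calcium and control groups without ethylene, and whose level with ethylene was lower when the calcium treatment was added. They were taken from 57359 gene IDs in a table of RNA-seq counts. Levels are given as CPM, which is a gene's count for each 1000000 counts of its library. A mean of at least 5 CPM was reached by 17715 genes, and 4676 of these had a mean over the ethylene-treated libraries at least 25% above, and under 4 times, that of the air libraries. In 3003 of these the ratio of the calcium to the control mean lay above 0.8 and below the inverse of 0.8, and they are called the genes within the bounds here. Both ethylene libraries lay above both calcium-and-ethylene libraries in 780 of these, and the 100 with the highest ratio of ethylene over calcium and ethylene were kept and ranked by that ratio. Every group mean therefore entered the choice, and the levels and changes below describe the chosen genes and test nothing about them.

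Seeds of the rice variety Dongjin, which all groups share, germinated in the dark for 2 days at 37 °C, followed by 3 days of dark culture at 28 °C in airtight boxes. The 8 libraries were made from poly(A) RNA of root tips, with 2 libraries each labelled control, calcium, ethylene (2 ppm in the air of the container), and calcium and ethylene. The sources used here state neither the calcium chloride concentrations nor the label that marks low calcium, and each group therefore keeps its label name. No label states that a group's libraries came from different plants, so the spread between them may be technical.

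Ethylene is a gaseous plant hormone. Its receptors sit in the endoplasmic reticulum membrane and repress the pathway when no ethylene is bound. With ethylene, the membrane protein EIN2 relays the signal to transcription factors of the EIN3 family, which are called EIL proteins in rice. In dark-grown rice seedlings ethylene shortens the root and lengthens the coleoptile. Calcium ions act as a second messenger in plant cells, and the title of the study concerns calcium passing through rice ethylene receptors. No deposited file pairs an ID with a name, and 0 of the 57359 IDs matched a RefSeq rice table of 39387 genes. No role can therefore be given to any of the 100 genes, no markers of root or of other tissues could be read, and no sequence is shown. The chosen genes are named by rank, and 4 of them by ID.

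Libraries held 19099091 to 25907083 counts, and 27008 genes passed the filter on low counts, all 100 chosen genes among them. The lowest count of a chosen gene was 24, in calcium replicate 2, so no chosen gene was at 0 in any library. No pair of libraries agreed within sampling noise, with chi-square at least 14.7 per degree of freedom. Replicate numbers were 1 and 2 in control and in calcium, 3 and 4 in ethylene, and 2 and 3 in calcium and ethylene.

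The median level of the chosen genes was higher in both ethylene libraries than in any other library, as the choice favours. Their median was 11.7 and 8.59 CPM in control replicates 1 and 2, 11.5 and 7.92 CPM in calcium replicates 1 and 2, 21.0 and 35.3 CPM in ethylene replicates 3 and 4, and 10.6 and 12.3 CPM in calcium and ethylene replicates 2 and 3. The median with calcium and ethylene thus lay in or just above the range of the air libraries. Together the genes took up 0.263% ± 0.0355 (SD, n = 2) of the control counts, 0.243% ± 0.0272 in calcium, 0.788% ± 0.272 in ethylene and 0.359% ± 0.0753 in calcium and ethylene. By library, the share was 0.596% in ethylene replicate 3 and 0.981% in ethylene replicate 4, against 0.306% and 0.412% in calcium and ethylene replicates 2 and 3. The gene ranked 64 alone supplied 14.5% to 24.95% of these counts, and without it the shares were 0.224%, 0.207%, 0.611% and 0.272% in the same order of groups. In bulk tissue, fewer cells of a type and less RNA per cell cannot be told apart.

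**Figure D1:**
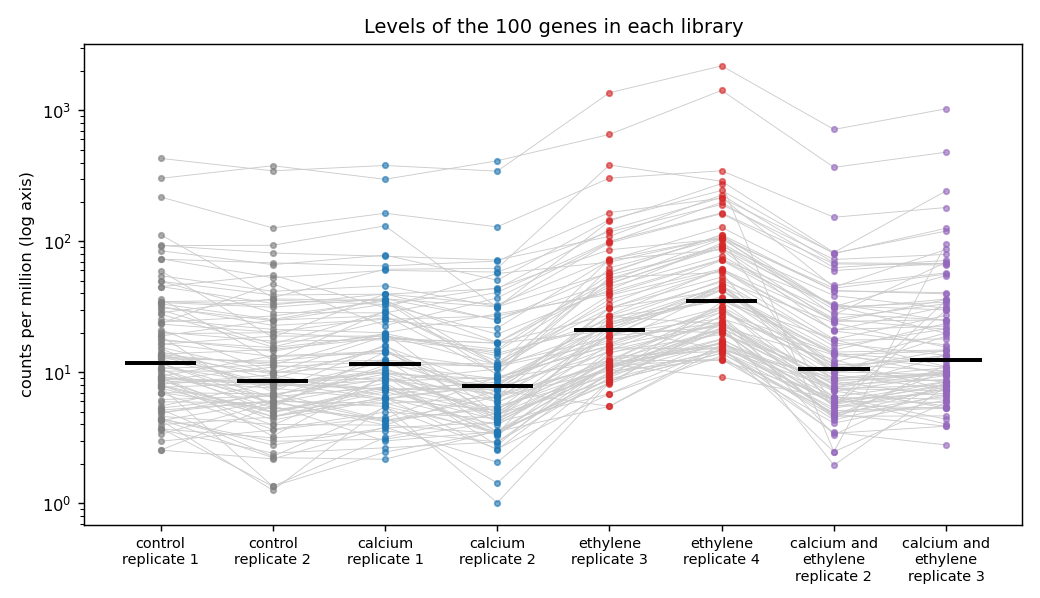
Level of each of the 100 genes in each of the 8 libraries, in CPM on a log axis. Points are genes, thin lines join the values of 1 gene, and black bars are medians, which are highest in ethylene replicate 4 at 35.3 CPM and lowest in calcium replicate 2 at 7.92 CPM.

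The 2 genes with the highest ratio of ethylene over calcium and ethylene differed in how well their libraries agreed. AGIS_Os02g038750, ranked 1, had 36.5 and 12.4 CPM in control, 29.2 and 11.3 in calcium, 72.7 and 86.3 in ethylene, and 20.7 and 16.2 in calcium and ethylene. Its ethylene libraries lay close together and far above the other 6, and its calcium-and-ethylene libraries lay inside the range of the air libraries. The means were 79.5 ± 9.61 CPM (SD, n = 2) in ethylene and 18.4 ± 3.21 CPM in calcium and ethylene, a ratio of 4.31. The fitted log2 fold change of calcium and ethylene against ethylene was -2.20 (SE 0.60, edgeR quasi-likelihood adjusted p = 0.629, over all 27008 genes). DESeq2 called this difference (log2 fold change -2.19, adjusted p = 0.00365), and over all alternatives the adjusted p ran from 0.00365 to 1. Ethylene against control gave 1.80 (SE 0.59, adjusted p = 0.0785), and control replicate 1 was 2.96 times control replicate 2. That gene's ethylene-against-control value passed the threshold in 1 alternative that left no library out. Without control replicate 1 its log2 fold change was 2.81.

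AGIS_Os10g014250, ranked 2, had 92.7 and 93.3 CPM in control, 131 and 31.2 in calcium, 143 and 276 in ethylene, and 2.47 and 96.0 in calcium and ethylene. The low value was calcium and ethylene replicate 2, with 52 counts, and the other library of that group lay at the control level. The mean of calcium and ethylene was 49.2 ± 66.1 CPM, so its ratio of 4.26 rests on 1 library. The log2 fold change against ethylene was -2.13 (SE 1.5, adjusted p = 0.707). It was -1.16 when calcium and ethylene replicate 2 was left out, -6.55 when replicate 3 of that group was, and -0.58 in the fit blocked by replicate number.

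Large gaps between the calcium-and-ethylene libraries occurred at the top of the ranking. Replicate 3 was at least 3 times replicate 2 in 4 genes, ranked 2, 3, 5 and 7, and replicate 2 was as far above replicate 3 in 0. The gene ranked 3 had 62.8 and 105 CPM in ethylene, 5.61 and 35.5 in calcium and ethylene, and 27.0 and 9.66 in calcium. That ranked 7 had 53.2 and 57.7 CPM in ethylene, 5.38 and 29.9 in calcium and ethylene, and 35.0 and 9.57 in calcium. For the genes ranked 2, 3 and 7, replicate 2 was therefore the lower library both in calcium and in calcium and ethylene. In control, replicate 2 was instead the higher library in these genes, though by little at rank 2. Control replicates 1 and 2 had 18.9 and 25.04 CPM at rank 3, and 24.2 and 26.9 at rank 7. At rank 5, calcium replicate 2 was the higher calcium library, with 3.53 CPM against 2.99. The genes ranked 2 and 7 lie 50 apart in ID number on chromosome 10. Whether these counts keep apart the reads of near-identical copies is not known.

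The 2 other named genes had the highest ratio of ethylene-treated over air libraries. AGIS_Os04g008650, ranked 46, had 16.6 and 13.2 CPM in control, 13.9 and 10.8 in calcium, 51.9 and 93.3 in ethylene, and 30.3 and 36.2 in calcium and ethylene. All 4 libraries with ethylene lay above all 4 without, and the calcium-and-ethylene libraries stood between the others. It rose in ethylene against control by 2.39 on the log2 scale (SE 0.32, adjusted p = 0.00584) and in calcium and ethylene against calcium by 1.46 (SE 0.32, adjusted p = 0.0202). The difference between these changes, the interaction, was -0.93 (SE 0.44, adjusted p = 1). Over all alternatives its adjusted p ran from 8.5e-11 to 0.117 for the first comparison and from 0.00017 to 0.117 for the second. Leaving out control replicate 2 ended the first call (adjusted p = 0.0553), as the replicate block did (0.117), and the second ended without calcium replicate 2 (0.117) or without calcium and ethylene replicate 2 (0.0599) or 3 (0.112).

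AGIS_Os10g035760, ranked 44, was a gene of low level with 2.54 and 2.18 CPM in control, 3.81 and 2.06 in calcium, 10.3 and 17.8 in ethylene, and 7.18 and 5.52 in calcium and ethylene. Its groups with and without ethylene did not overlap. It rose in ethylene against control by 2.67 on the log2 scale (SE 0.43, adjusted p = 0.00787), the highest of the 100 fitted values. In calcium and ethylene against calcium its log2 fold change was 1.13 (SE 0.41, adjusted p = 0.0864). The first call was lost without control replicate 2 (adjusted p = 0.0709) and under the block (0.148).

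**Figure D2:**
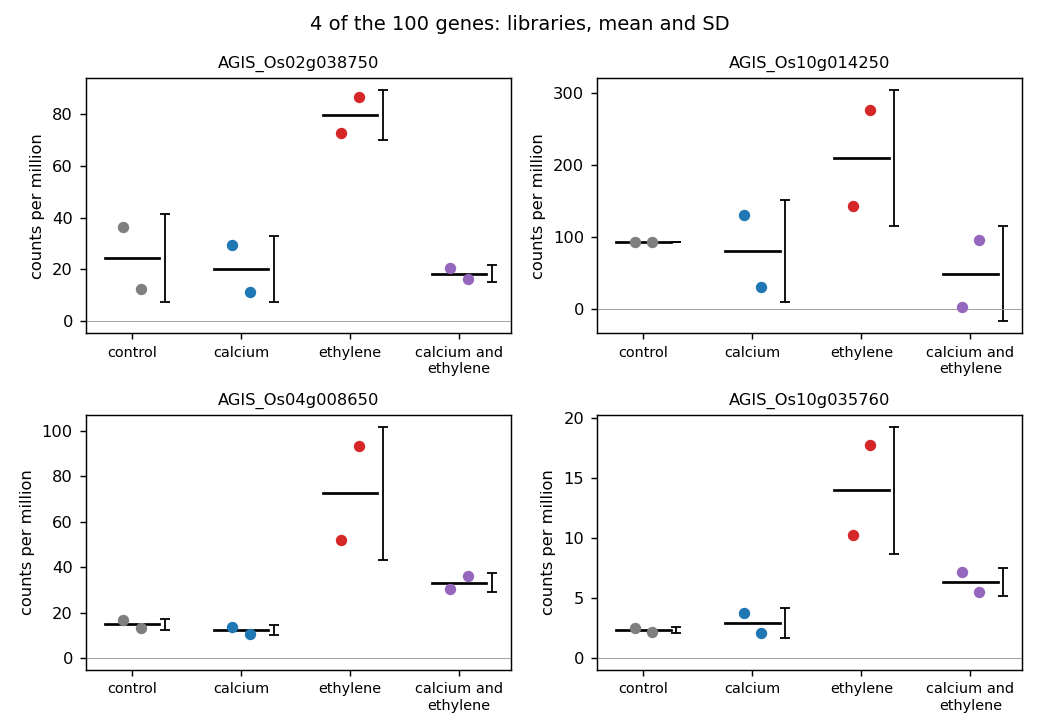
Levels of the 4 genes named by ID in CPM. Points are libraries, horizontal bars are means of 2 libraries and whiskers are the SD. For AGIS_Os10g014250 the calcium-and-ethylene libraries stand at 2.47 and 96.0 CPM.

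The first question of the design was what ethylene changed in control roots. The fitted log2 fold change of the chosen genes had a median of 1.47 and ran from 0.82 to 2.67, against a median of 0.02 over all genes tested. At an adjusted p under 0.05 by edgeR, 52 of the 100 rose and 0 fell. Among all genes tested 9.59% rose and 7.92% fell, and since the choice used this contrast nothing is read from the difference. Both ethylene libraries lay above both control libraries in 97 of the 100, against 28.8% of genes tested and 85.9% of the genes within the bounds. The exceptions were the genes ranked 13, 47 and 56, whose ethylene replicate 3 lay within the control range. At rank 56, for example, it had 5.50 CPM against 4.27 and 6.04 in control. The mean in ethylene was at least 2 times that in control in 77 genes and at least 4 times in 18. Leaving out control replicate 2 took the 52 calls to 0, leaving out ethylene replicate 4 to 21 and leaving out control replicate 1 to 33, and a block for the replicate number took them to 0. Over all genes the share called higher dropped as well, to 0.761%, 4.68%, 5.14% and 0.141% in the same order.

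The next question was the ethylene change within the calcium groups. The median log2 fold change was 0.36, from -0.66 to 1.46, against 0.01 over all genes tested. Of the 100, 4 rose and 0 fell, where 9.4% of all genes tested rose and 8.36% fell. These were the genes ranked 45, 46, 64 and 70. The gene ranked 64, the most abundant of the 100 per length at 1150 RPKM (CPM divided by gene length in kilobases), had 379.7 and 344 CPM in calcium and 715 and 1029 in calcium and ethylene (log2 fold change 1.30, SE 0.31, adjusted p = 0.0246). In control it had 430.0 and 345 CPM, and in ethylene 1364 and 2189. The gene ranked 45 had 8.63 and 10.6 CPM in calcium, 21.1 and 22.6 in calcium and ethylene, and 36.0 and 59.8 in ethylene. Its groups did not overlap and its ethylene-group spread was wider than that of calcium and ethylene. The calcium-and-ethylene libraries both lay above both calcium libraries in 42 of the 100, against 32.6% of genes tested and 85.8% of the genes within the bounds. They lay below both in 3, against 32.1% and 0.133%. The choice favours a low calcium-and-ethylene mean, so nothing is read from these shares. The count of 4 dropped to 0 on leaving out calcium replicate 2 or either library of calcium and ethylene, and was 11 and 12 on leaving out ethylene replicates 3 and 4. The share of all genes called higher was 2.1% without calcium replicate 2, 2.85% and 1.59% without replicates 2 and 3 of calcium and ethylene, and 10.9% and 11.4% on leaving out ethylene replicates 3 and 4. With the replicate block 1 of the 100 and 5.32% of all genes fell.

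How much of the ethylene difference was left with calcium varied among the genes. The difference in mean CPM between calcium and ethylene and calcium was set against that between ethylene and control. It had a median of 15.6% and ran from -31.0% to 41.65%. In 27 genes calcium and ethylene lay at or below calcium, in 44 up to 25% of the difference was left, and in 29 more than 25%. The 27 had lower levels and smaller ethylene ratios: their median was 8.76 CPM in control, 8.05 in calcium, 16.3 in ethylene and 7.37 in calcium and ethylene, with a median ratio of ethylene over control of 1.95. The 44 had medians of 11.9, 10.2, 29.7 and 12.6 CPM in that order and a ratio of 2.47. The 29 had medians of 10.3, 9.32, 34.6 and 17.8 CPM and a ratio of 3.71. The genes with the most left had the highest ethylene ratios, which the upper limit of 4 on the pooled ratio bounds. The choice itself ties these quantities. It bounded calcium over control, and ethylene over calcium and ethylene lay between 1.98 and 2.44 from the 25th to the 75th percentile. A higher ethylene ratio then leaves more of the difference by arithmetic, so nothing is read from this order. These classes were set after the values had been seen.

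**Figure D3:**
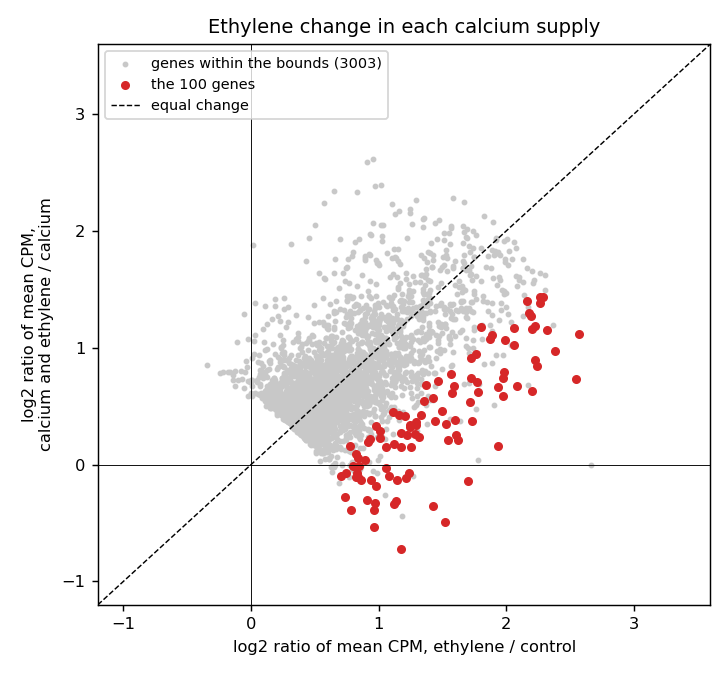
Log2 ratio of mean CPM for ethylene over control (x axis) and for calcium and ethylene over calcium (y axis). Grey points are the 3003 genes within the bounds and red points the 100 chosen genes, all of which lie below the dashed line of equal change, 27 of them below 0 on the y axis.

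The third comparison was calcium with ethylene against ethylene, on which the genes were ranked. The ratio of means, ethylene over calcium and ethylene, had a median of 2.12 and ran from 4.31 down to 1.86 for the last gene kept, with 1.84 for the next below it. The fitted log2 fold change of calcium and ethylene against ethylene had a median of -1.17, against 0.00 over all genes tested. By edgeR 0 of the 100 fell, as did 0% of all genes tested, and the lowest adjusted p among the 100 was 0.523. Without adjustment, 80 of the 100 reached a p under 0.05, all lower, as did, on that side, 5.41% of all genes tested. The choice fixed the direction for the 100. DESeq2 called 20 of the 100 lower, against 0.574% of all genes tested, and edgeR called 18 when low counts were not filtered out, against 0.284%. Both ethylene libraries lay above both of calcium and ethylene by the rule, as in 18.5% of genes tested. The gap between the groups was narrow for many: the lower ethylene library was 1.41 times the higher calcium-and-ethylene library in the median, and 1.01 times at the least.

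Within the same bounds the opposite pattern also occurred. Both ethylene libraries lay above both calcium-and-ethylene libraries in 25.97% of the 3003 genes and below both in 15.8%, which is 474 genes. The 100 of these with the lowest ratio had a median ethylene over calcium-and-ethylene ratio of 0.538, so their calcium-and-ethylene levels were higher by a factor similar in size to the 2.12 of the chosen genes. This mirrored set was drawn up after the values had been seen.

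The size of the difference varied with which ethylene library was used. That library was the highest of all 8 in 94 of the 100 genes, and ethylene replicate 3 was in the other 6. Replicate 4 was at least 1.5 times replicate 3 in 73 genes, with a median ratio of 1.72. Among the genes within the bounds replicate 4 was the higher in 65.3% with a median ratio of 1.11, and among all genes tested in 46.9%. In the mirrored set it was the higher in 10 of 100, with a median ratio of 0.602. The choice favours whatever is high in an ethylene library, so these values describe it and their part in the result was not tested. Set against the calcium-and-ethylene mean, replicate 3 had a median ratio of 1.59 and replicate 4 of 2.66. Replicate 3 alone was at least 1.5 times that mean in 71 genes and at least 2 times in 16. Ethylene replicate 3 and calcium and ethylene replicate 3, which share a number, had a median ratio of 1.48. Without replicate 4 the fitted median was -0.70 in place of -1.17, and without replicate 3 it was -1.51, where edgeR called 23 of the 100 and 0.615% of all genes lower.

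**Figure D4:**
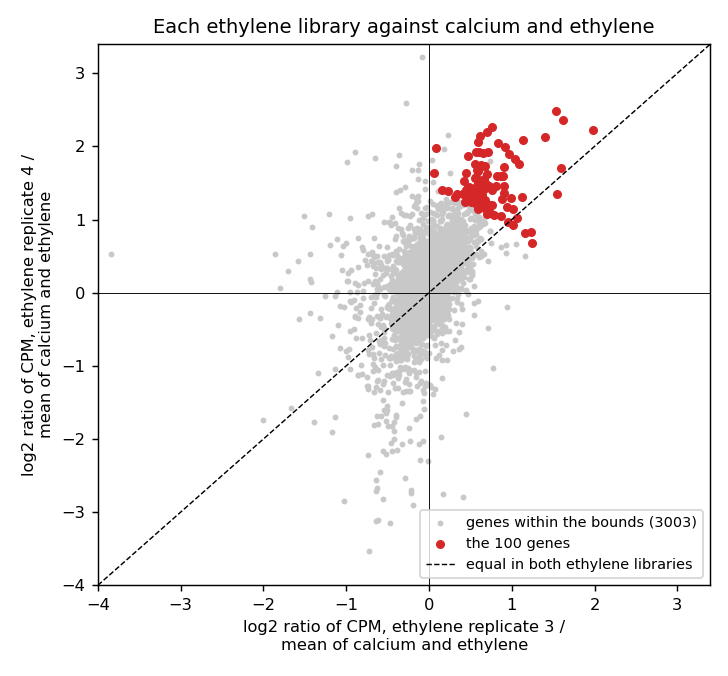
Log2 ratio of CPM of ethylene replicate 3 (x axis) and replicate 4 (y axis) over the mean of the calcium-and-ethylene libraries. Grey points are the 3003 genes within the bounds and red points the 100 chosen genes, which lie right of 0 and above 0, with 94 above the dashed line of equal values.

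Calcium against control asked what calcium changed without ethylene, where the rule had asked for little change. The ratio of means ran from 0.803 to 1.24 with a median of 0.903, and calcium was the higher in 20 of the 100 by fitted log2 fold change, whose median was -0.15. No gene of the 100, and 0% of all genes tested, was called by edgeR, 0 of the 100 and 3.84% of all genes reached an unadjusted p under 0.05, and DESeq2 called 0 of the 100 and 0.0222% of all. The libraries of the groups overlapped in 92 genes. Both calcium libraries lay below both control libraries in 7, against 14.9% of genes tested and 16.8% of the genes within the bounds. They lay above both in 1, against 16.6% and 4.06%. The 95% interval of edgeR's fitted change lay within 2-fold in either direction for 36 of the 100, against 51% of all genes tested. For the other 64 a 2-fold difference without ethylene was thus not outside the interval.

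The air libraries of a group were themselves apart for some genes. Control replicate 1 was above replicate 2 in 72 of the 100 with a median ratio of 1.24, and calcium replicate 1 above replicate 2 in 69 with a median of 1.27. Among the genes within the bounds these shares were 63.6% and 66.1%. Libraries of 1 group differed by at least 1.86 times, the lowest ratio that admitted a gene, in 21 genes for control, 27 for calcium, 37 for ethylene and 12 for calcium and ethylene. Gaps of this size were less frequent among the genes within the bounds, at 5.59%, 7.76%, 10.4% and 5.29% in the same order. Calcium replicate 2 was the lowest library in 44 genes, control replicate 2 in 22, calcium replicate 1 in 16 and calcium and ethylene replicate 2 in 14. In the same order, the shares among the genes within the bounds were 46.1%, 22.04%, 18.3% and 0.966%. The choice favours a low calcium-and-ethylene mean, so nothing is read from the last of these.

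The interaction asks whether the ethylene change differed between the calcium supplies, which is what a dampening in ethylene alone amounts to. Its median over the 100 was -1.09 on the log2 scale, from -2.09 to -0.69, with a median SE of 0.57. No gene was called by edgeR among the 100 or among all genes tested (0%), and the lowest adjusted p among the 100 was 1. Without adjustment, 31 of the 100 and 2.38% of all genes tested reached a p under 0.05, and DESeq2 called 0 of the 100 and 0.0037% of all. By edgeR and DESeq2, that the calcium difference was particular to roots with ethylene was therefore not shown for any single gene of the 100, and the description rests on the ratios of means that the rule used.

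In 3 genes the changes pointed opposite ways with no overlap between libraries, as in 0.552% of genes tested. They were the only such genes among the 3003 within the bounds, and the choice favours this pattern. The gene ranked 4 had 11.7 and 5.81 CPM in control and 18.9 and 31.4 in ethylene, but 11.3 and 8.90 in calcium and 5.95 and 8.42 in calcium and ethylene. That ranked 24 had 93.0 and 81.5 CPM in control and 109 and 226 in ethylene, but 76.9 and 72.1 in calcium and 68.5 and 67.6 in calcium and ethylene. The gene ranked 40 had 13.8 and 14.96 CPM in control and 20.8 and 42.2 in ethylene, but 18.3 and 16.7 in calcium and 13.6 and 14.6 in calcium and ethylene. In each of them the ethylene libraries were further apart than the calcium ones were from calcium and ethylene.

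Which genes were chosen depended on single libraries. With 1 library left out and the rule applied again, 33 to 71 of the 100 were chosen: 33 without calcium replicate 2, 36 without control replicate 1, 47 without calcium replicate 1, 50 without ethylene replicate 4, 55 without control replicate 2, 57 without replicate 2 and 59 without replicate 3 of calcium and ethylene, and 71 without ethylene replicate 3. Without an air library, 35 to 51 of the 100 left the bounds on the calcium over control ratio. Without ethylene replicate 4, 31 left the bounds on the ethylene over air ratio and 9 were under 5 CPM. All 8 repeats chose 3 genes, ranked 21, 25 and 41, and the median gene was chosen in 4 of 8.

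These 3 genes had libraries that lay close together in air. That follows from how they were found, since calcium over control had to stay within its bounds with each air library left out. That ranked 21 had 49.6, 39.0, 39.5 and 43.5 CPM in the air libraries, control first, then 123 and 216 in ethylene and 44.7 and 86.7 in calcium and ethylene. The gene ranked 25 had 303, 378, 298 and 412 CPM in air, 656 and 1422 in ethylene and 367 and 479.5 in calcium and ethylene. That ranked 41 had 8.16, 9.06, 7.32 and 8.40 CPM in air, 17.7 and 24.3 in ethylene and 8.99 and 9.86 in calcium and ethylene. In the gene ranked 41 calcium and ethylene stood next to the air range, and in that ranked 21 replicate 3 of calcium and ethylene stood well above it.

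**Figure D5:**
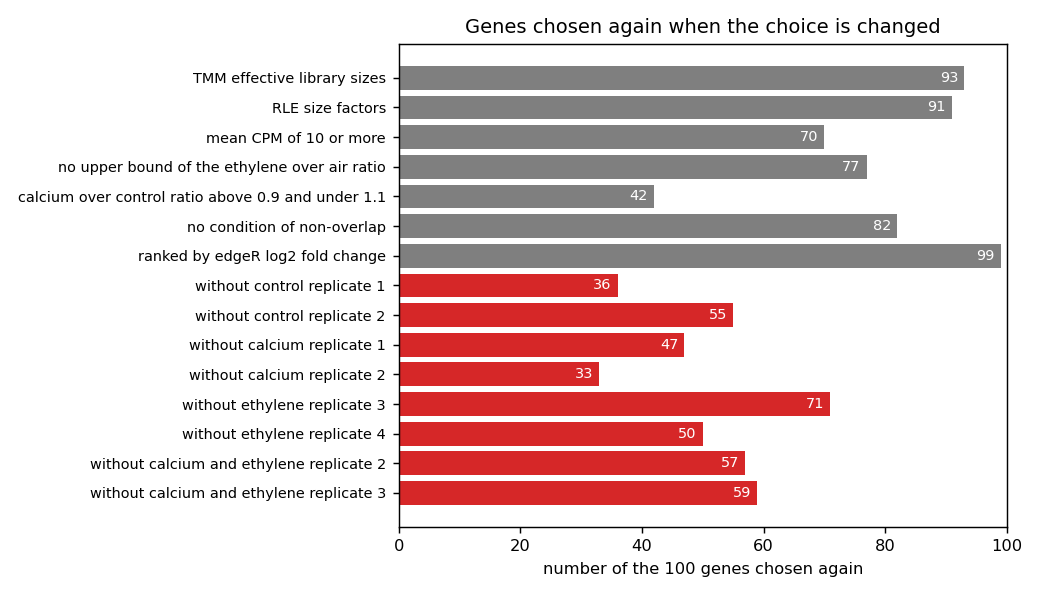
Number of the 100 genes chosen again when 1 setting of the rule is changed (grey bars) or 1 library is left out (red bars). The lowest is 33 without calcium replicate 2 and the highest 99 when genes are ranked by the fitted edgeR fold change.

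Length was not used by the rule, while the level and the ethylene libraries were, and all are given as descriptions. The median length of the chosen genes was 1790 bases, against 2111 for the genes within the bounds and 1867 for all genes of at least 5 CPM, and the mirrored set had 2168. Their median level was 14.5 CPM over all libraries, and 9.13 RPKM, against 28.8 and 13.6 within the bounds, and 30 of them lay under 10 CPM. The mirrored set had 15.5 CPM and 7.57 RPKM. Per length the chosen genes ran from 1.65 to 1150 RPKM. By rank, the first 25 genes had a median level of 12.8 CPM, a median length of 1324 bases and a median ratio of ethylene replicate 4 over 3 of 2.10, and the last 25 had 18.9 CPM, 1667 bases and 1.59.

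The IDs carry a chromosome number, and the chosen genes were spread over all 12. Chromosome 5 held 13 of them, chromosome 8 held 12 and chromosome 12 held 11, which are 13%, 12% and 11%. Those chromosomes held 8.29%, 6.26% and 5.36% of the genes within the bounds. Chromosomes 1, 2 and 3 held 8, 6 and 8, against 14.9%, 11.5% and 13.9% of the genes within the bounds. In the mirrored set, chromosomes 1, 2 and 3 held 14, 17 and 16. No background is given for pairs within 50 in ID number, so nothing is read from their count. Such pairs numbered 5 among the chosen genes and 0 in the mirrored set. They were the genes ranked 27 and 36 on chromosome 6 and 23 and 37 on chromosome 7, each 10 apart, 15 and 89 on chromosome 8, 40 apart, 72 and 86 on chromosome 10, 30 apart, and the pair ranked 2 and 7.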

How the data were processed

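Poly(A) RNA of 8 root tip libraries was sequenced. Raw counts, 1 whole number for each gene in each library, are what the authors deposited, beside a gene length in bases. Per the submitters' processing notes, the authors used fastp and featureCounts, without stated versions. Aligner, build, annotation version and strand use were not given in the sources used here. Whether reads of overlapping, antisense or near-identical genes were kept apart is therefore not known.

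Columns matched libraries by title. The genes and comparisons were chosen with earlier results of these data known. Named IDs were the 2 chosen genes with the highest ratio of ethylene over calcium and ethylene and the 2 others with the highest ratio of ethylene-treated over air libraries. The gene lists planned for ethylene, calcium and root markers could not be filled, since no ID matched a symbol.

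Counts were fitted with edgeR 4.0.16 (R 4.3.3, limma 3.58.1, filterByExpr with a minimum count of 10, TMM, 1 robust quasi-likelihood model of 4 groups on 8 libraries), with Benjamini-Hochberg adjustment over 27008 genes and a threshold of 0.05. The fit was also run on simulated data, and nothing on its power for changes of the size seen here is drawn from that. Alternatives were RLE, DESeq2 1.42.0, other filters, fits of only the libraries compared, a block for replicate number, and leaving out each library. Ratios use CPM over column totals, with no pseudocount. Figures used Python 3.11.15 and matplotlib 3.10.9.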

Additional observations from a re-analysis of the deposited data

Results flagged for a closer look

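In 3 of the 100 genes, ranked 4, 24 and 40, both ethylene libraries lay above both control libraries while both calcium-and-ethylene libraries lay below both calcium libraries, as in 0.552% of all genes tested and in no other of the 3003 genes within the bounds. The difference between these directions was not shown by a test: no interaction passed an adjusted p under 0.05 in edgeR, and the genes had been chosen on these group means.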

How the results depend on the processing

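In ethylene against control the 52 genes called higher became 81 with DESeq2 (14.7% of all genes) and 0 with the replicate block (0.141%). The median log2 fold change of 1.47 became 0.92 under the block and ran from 1.08 to 1.78 in fits missing 1 library. For calcium and ethylene against calcium, 9.42% of all genes were called higher without the filter on low counts. That share was 12.6% in a fit of the 4 libraries at issue and 7.77% under the block. These shares are the background for the counts of the 100 given next. In calcium and ethylene against calcium the 4 became 13 with DESeq2 (14.8% of all genes), 13 without the filter on low counts, 13 in a fit of the 4 libraries at issue and 9 under the block, and 0 to 12 in fits missing 1 library. In calcium and ethylene against ethylene the 0 called lower became 20 with DESeq2, 18 without the filter and 0 to 23 with 1 library left out (23 without ethylene replicate 3). The median of -1.17 was -0.57 under the block and -1.51 to -0.70 in fits missing 1 library. The interaction median of -1.09 was -0.46 under the block and -1.42 to -0.62 in fits missing 1 library. In calcium against control and the interaction, each alternative called 0 of the 100. Of the 100 genes, 42 were chosen with a calcium over control ratio above 0.9 and under 1.1, 70 with at least 10 CPM, 77 without the upper limit of 4, 82 without the condition on overlap, 91 with RLE, 93 with TMM and 99 ranked by fitted fold change, and 33 to 71 with 1 library left out. Fewer libraries enter some fits, and a library left alone in its group is assumed to vary like the others. Otherwise the cause was not tested. AGIS_Os02g038750 changed sign in calcium and ethylene against calcium, from -0.12 to 0.90 with the block, 0.73 without calcium replicate 1 and 0.0009 without calcium and ethylene replicate 3 (lowest -0.63). AGIS_Os10g014250 changed from -0.66 to 0.73 there without calcium replicate 1 and 0.28 without calcium and ethylene replicate 2 (lowest -5.07), and from 1.28 to -4.25 in ethylene against control with the block. Of 220 values of the 4 named genes, 199 kept their direction and side of the threshold. Replicate numbers were not treated as pairs: their meaning is not stated, and deviations of same-numbered libraries correlated at 0.18, 0.104, 0.107 and 0.0154. No other library shares the number of ethylene replicate 4, which leaves replicate 3 alone to represent ethylene under the block. With 2 libraries a group, edgeR's intervals of calcium against control were wider than 2-fold for most of these genes.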
